A study of Mus musculus with 2 samples.

Results

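Early B lineage genes were followed across the marrow of 1 control (Ctrl) library and 1 Map4k4 knockout (cKO) library of droplet-based 3′ single-cell RNA sequencing. The members were 9 of the 32285 genes in the count tables, chosen by name for their role at the start of B cell development: Ebf1, Pax5, Vpreb1, Vpreb3, Igll1, Rag1, Rag2, Dntt and Il7r. The question was where their RNA lay, and whether lymphoid priming, the low-level RNA of such genes in progenitors that are not yet B cells, was lower in the cKO library along with the B cells. Both libraries came from the bone marrow of C57BL/6 mice aged 13 to 14 weeks, and each mixed 2 parts of c-Kit+ cells, enriched with beads, with 3 parts of red-cell-lysed marrow. The cKO mice carried loxP-flanked Map4k4 alleles (Map4k4 f/f) and Mx1-Cre, an interferon-inducible Cre that acts in many haematopoietic and other cells, and deletion was induced by repeated injections of poly I:C. The controls are given as littermates, written Mx1-Cre Map4k4 -/-, and whether they received poly I:C is not stated. How many mice went into a library is not given, and with 1 library per condition no difference between Ctrl and cKO has a replicate check. Every interval below is a 95% interval that covers counting error only, and cells are not replicates. Intervals and limits of CPM and of log2 CPM ratios take UMIs as independent. They are too narrow where a few cells hold most UMIs of a gene.

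B cells arise in the marrow from multipotent progenitors by way of lymphoid-primed progenitors that carry the receptor Flt3. Il7r, the IL-7 receptor alpha chain, gives these cells and early B cells a growth and survival signal, and the transcription factors Ebf1 and Pax5 establish and hold B cell identity. Rag1 and Rag2 cut the immunoglobulin genes for V(D)J recombination, and Dntt (terminal transferase) adds bases at the joints. Vpreb1 and Igll1 form the surrogate light chain, a stand-in that pairs with the first heavy chain in the pre-B cell receptor, and Vpreb3 is a related protein of B cell precursors.

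On GRCm38, the build of the files, Ebf1 lies at chr11:44617317-45008091 on the plus strand, Pax5 at chr4:44524757-44710487 on the minus strand, Vpreb3 at chr10:75943057-75949657 on the plus strand, Dntt at chr19:41029275-41059525 on the plus strand and Il7r at chr15:9505788-9530176 on the minus strand. Rag2 (chr2:101624718-101632529, plus) and Rag1 (chr2:101638282-101649501, minus) are neighbours, 5752 bases apart. Igll1 (chr16:16860671-16863985, minus) and Vpreb1 (chr16:16868403-16870843, minus) are 4417 bases apart. Rag1 and Rag2 share exonic bases with B230118H07Rik, Vpreb1 with Top3b on the other strand, and Pax5 with the antisense gene Gm12462. Whether the counting used strand is not given in the sources used here, so reads of such pairs cannot be told apart, and Vpreb1 also has a close copy, Vpreb2 (chr16:17980428-17981273, plus), with which reads may be shared. The bases before the start of the surrogate light chain genes are shown because they make this likeness visible. A further reason is that the UMIs of Vpreb1 and Igll1 lay apart from those of most other members in cKO granulocyte progenitors (below). The sequences are the 250 bases before the RefSeq start on GRCm38.p6, chr16:16869256-16869505 on the minus strand for Vpreb1, chr16:17980315-17980564 on the plus strand for Vpreb2 and chr16:16863986-16864235 on the minus strand for Igll1. Capitals mark the longest run of bases that Vpreb1 and Vpreb2 share and, in Igll1, a match to CCCNNGGG, the core letters of the Ebf1 motif.
Vpreb1: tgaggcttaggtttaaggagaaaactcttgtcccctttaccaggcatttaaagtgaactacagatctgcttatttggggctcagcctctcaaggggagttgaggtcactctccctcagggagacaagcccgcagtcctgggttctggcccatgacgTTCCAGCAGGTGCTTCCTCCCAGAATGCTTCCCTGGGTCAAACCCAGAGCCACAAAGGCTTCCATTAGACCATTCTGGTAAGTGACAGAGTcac
Vpreb2: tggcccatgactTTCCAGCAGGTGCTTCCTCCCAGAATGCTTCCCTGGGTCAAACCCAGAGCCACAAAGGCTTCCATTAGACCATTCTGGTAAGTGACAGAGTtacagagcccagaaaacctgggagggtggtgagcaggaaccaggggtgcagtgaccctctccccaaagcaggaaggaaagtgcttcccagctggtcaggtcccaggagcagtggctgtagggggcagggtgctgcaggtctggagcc
Igll1: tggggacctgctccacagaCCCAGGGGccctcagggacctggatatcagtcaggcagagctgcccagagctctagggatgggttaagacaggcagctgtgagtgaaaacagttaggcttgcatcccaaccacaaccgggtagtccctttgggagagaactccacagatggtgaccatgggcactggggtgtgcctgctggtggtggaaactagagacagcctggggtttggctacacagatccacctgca
The shared run holds 91 bases, and over the 106 aligned bases around it 104 were identical (98.1%). The run begins 94 bases before the start of Vpreb1 and 238 bases before that of Vpreb2. CCCNNGGG, which reads the same on both strands, occurred in 11.8% of the 32851 windows of 250 bases before RefSeq starts and in 1 of the 9 members, Igll1. The E-box CANNTG occurred in 66.2% of windows and in 9 of 9 members, and its form CAGCTG, which CANNTG includes, in 13.0% of windows and in 2 of 9. These matches are descriptions of the letters.

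After the filter of the study's methods (200 to 9000 detected genes and at most 30% mitochondrial counts), 9965 Ctrl cells with 71282090 unique molecular identifiers (UMIs, counted RNA molecules) and 6718 cKO cells with 64241692 UMIs were kept. Cells were assigned to 16 classes by marker genes that include none of the 9 members, and a class is named "-like" because it rests on those markers. Map4k4 itself separated the libraries little, at 72.6 CPM (UMIs per 1000000 UMIs, interval 70.6 to 74.6) in Ctrl and 64.3 CPM (62.4 to 66.3) in cKO, so the direction of every comparison rests on the library labels and not on this gene. In the 3′ counts a UMI of Map4k4 need not lie in the deleted part. The libraries shared 3010 barcodes, and the cells behind the shared kept ones had the same class in 21.7% of cases, against 21.5% if they were unrelated.

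B-lineage-like cells were far fewer in the cKO library. They numbered 715 in Ctrl, 7.18% of kept cells (Clopper-Pearson interval 6.68% to 7.70%), and 18 in cKO, 0.268% (0.159% to 0.423%), a share 26.8-fold lower in cKO (16.8 to 45.5). All 11 markers of the class were detected in both libraries, and Ms4a1 (CD20) led its genes. Most classes outside the granulocyte line had lower shares too. T-like cells (77 and 9) were 5.77-fold lower, plasmacytoid dendritic (pDC)-like cells (119 and 11) 7.29-fold lower, NK/ILC-like cells (67 and 15) 3.01-fold lower and plasma cell-like cells (90 and 38) 1.60-fold lower. The share of stem/MPP-like cells, stem cells and multipotent progenitors, was 2.52-fold lower (651 and 174 cells), that of erythroblast-like cells 5.98-fold, of megakaryocyte-like cells 3.78-fold, of MEP-like cells, megakaryocyte and erythroid progenitors, 2.35-fold and of macrophage-like cells 2.17-fold. PreNeu/imNeu-like cells, the neutrophil precursors and immature neutrophils, were 34.2% of Ctrl and 49.3% of cKO cells. The fold for B-lineage-like cells was above that of each of the other 15 classes. All of these shares depend on how the c-Kit+ and marrow fractions were mixed, whose part was not tested. By flow cytometry of marrow, the study found no change in percentages or numbers of stem cells and progenitors in cKO mice. It also reports unaffected lymphocyte counts in cKO blood. Those measures differ from shares of a library with enriched c-Kit+ cells.

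Over the whole libraries, each of the 9 genes was lower in cKO by a wide margin. The summed level of the 9 was 277 CPM in Ctrl and 12.4 CPM in cKO, a log2 ratio of -4.48 (-4.58 to -4.38). All 9 were at least 2-fold lower, beside 22.4% of the 15489 genes with at least 10 UMIs, whose median log2 ratio was -0.53. Of the regulators, Ebf1 had 4839 UMIs (67.9 CPM) in Ctrl and 138 (2.15 CPM) in cKO, a log2 ratio of -4.98 (-5.24 to -4.74). Pax5 had 1645 and 62 UMIs (23.1 and 0.965 CPM, log2 -4.58).

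The surrogate light chain genes were among the lowest of the set. Igll1 had 2206 UMIs (30.9 CPM) in Ctrl and 40 (0.623 CPM) in cKO, a log2 ratio of -5.64 (-6.12 to -5.19). Vpreb1 had 2406 and 55 UMIs (33.8 and 0.856 CPM, log2 -5.30), and Vpreb3 had 4967 and 167 (69.7 and 2.60 CPM, log2 -4.74). Of the recombination genes, Rag1 had 333 and 5 UMIs (4.67 and 0.0778 CPM, log2 -5.91, -7.54 to -4.67) and Rag2 had 172 and 13 (2.41 and 0.202 CPM, log2 -3.58). Dntt and Il7r, the members that also act before B commitment, had the ratios nearest to 0 together with Rag2. Dntt had 2073 and 216 UMIs (29.1 and 3.36 CPM, log2 -3.11, -3.32 to -2.91) and Il7r had 1140 and 103 (15.99 and 1.60 CPM, log2 -3.32, -3.62 to -3.03). The intervals of Dntt and Il7r did not reach those of Ebf1, Pax5, Vpreb1, Vpreb3 or Igll1.

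The genes differed in where their UMIs lay. In Ctrl, B-lineage-like cells held 3.85% of all UMIs but 88.0% of those of Ebf1, 87.5% of Pax5, 85.5% of Vpreb3, 82.3% of Rag1, 82.2% of Igll1 and 80.5% of Vpreb1. They held a smaller part of Rag2 (57.6%), Il7r (54.4%) and Dntt (37.0%). In cKO, where B-lineage-like cells held 0.125% of UMIs, they still had 84.8% of the Ebf1 UMIs and 90.3% of those of Pax5, but only 62.3% of Vpreb3, 35.0% of Igll1, 20.0% of Vpreb1, 17.5% of Il7r, 0.463% of Dntt and none of the 5 UMIs of Rag1 or the 13 of Rag2. Most of the remaining UMIs of Ebf1, Pax5 and Vpreb3 in cKO were counted in B-lineage-like cells, and most of those of Vpreb1, Igll1, Il7r, Dntt, Rag1 and Rag2 in other cells.

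**Figure D1:**
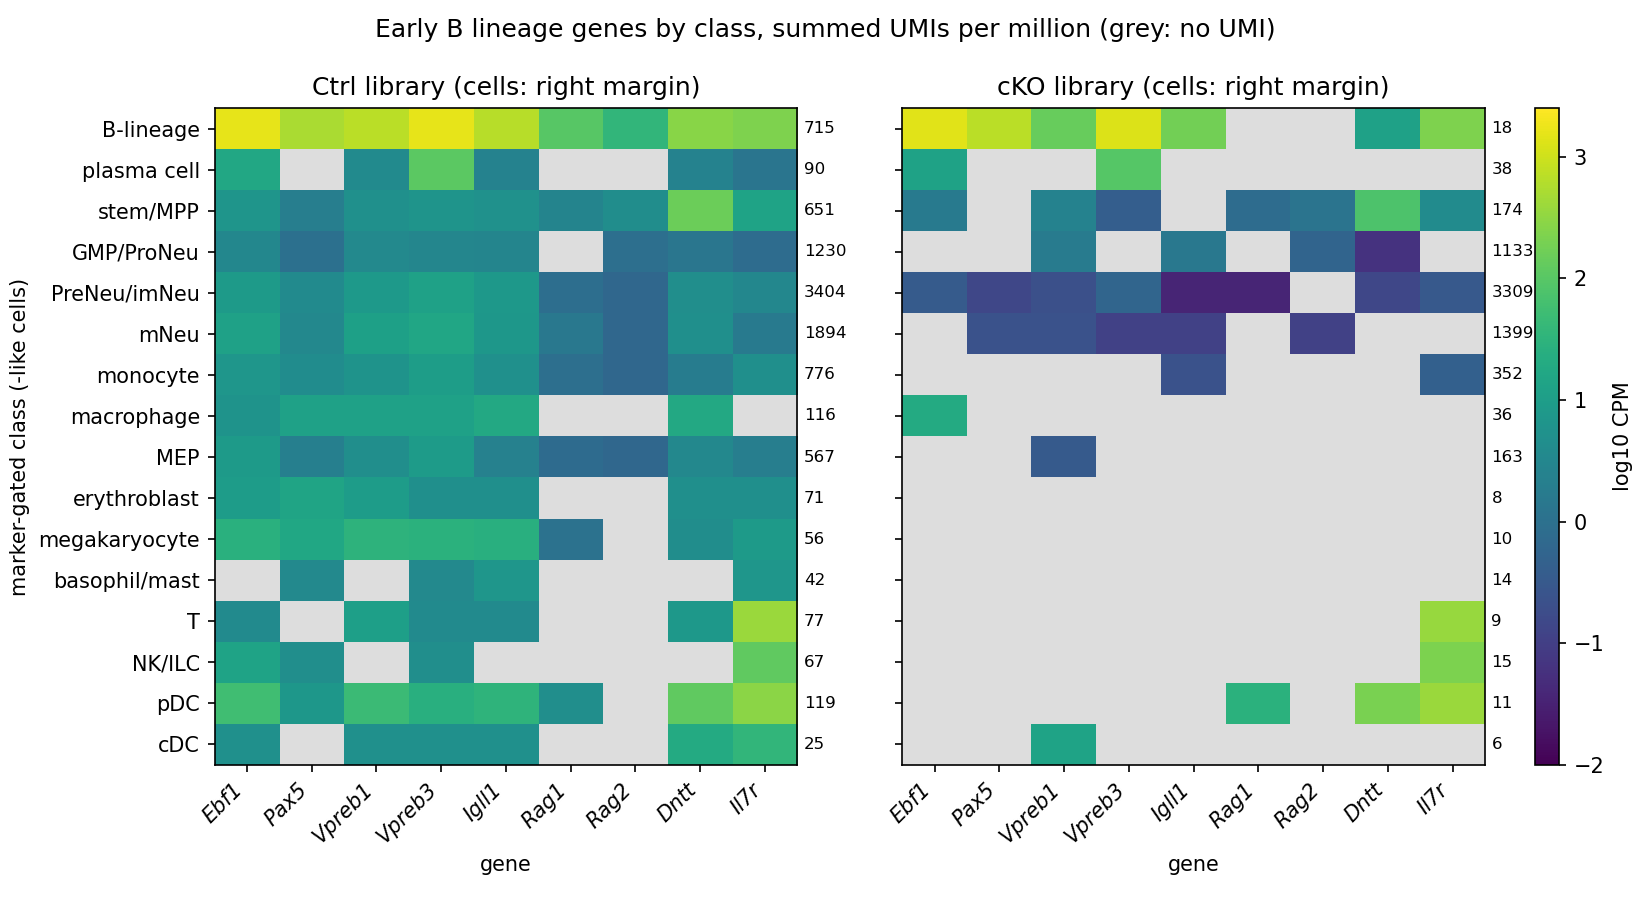
Level of each of the 9 genes in the 16 marker-gated classes, as log10 of CPM from summed UMIs, in the Ctrl library (left) and the cKO library (right), with the number of cells of each class beside its row. Grey marks a class with no UMI of the gene. In Ctrl nearly every class holds some UMIs of most genes, while in cKO most fields outside the B-lineage-like, stem/MPP-like and PreNeu/imNeu-like rows are grey, with Il7r in T-, NK/ILC- and pDC-like cells of both libraries.

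Within B-lineage-like cells, Ebf1, Pax5, Vpreb3 and Il7r differed by less than 2-fold between the libraries, while Vpreb1, Igll1, Rag1 and Dntt were more than 2-fold lower in cKO. By the ratio of CPM, 5 of the 9 members were at least 2-fold lower in cKO, beside 32.5% of the 10283 genes with at least 10 UMIs in these cells. Here and below such counts take in every gene with no cKO UMI, also where the limit of 3 counts lies above its Ctrl level, as it does for Rag2 here. Among genes deep enough that at least 10 UMIs would be expected in each library, 3 of 7 members were at least 2-fold lower, beside 7.73% of the 1307 genes. Ebf1 had 4257 UMIs in 620 of the 715 Ctrl cells (1551 CPM) and 117 in 16 of the 18 cKO cells (1459 CPM), a log2 ratio of -0.09 (-0.37 to 0.18). Pax5 was at 524 and 698 CPM (1439 and 56 UMIs, log2 0.41, 0.00 to 0.80). The CPM of these regulators in B-lineage-like cells was within 2-fold between the libraries. With each cell weighted equally, Ebf1 was at log2 -0.41, outside its interval above, and the sign for Pax5 turned (log2 -0.016).

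Vpreb3 was at 1548 and 1297 CPM (4247 and 104 UMIs, log2 -0.26, -0.55 to 0.03). Il7r was at 226 and 224 CPM (620 and 18 UMIs, log2 -0.01, -0.77 to 0.66), with 14 of the 18 cKO UMIs in a single cell. With each cell weighted equally, the log2 ratio was -1.16 for Vpreb3 and -1.25 for Il7r, so the near-equal levels of these genes rest on a few deep cKO cells.

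The surrogate light chain and recombination genes were lower in the cKO B-lineage-like cells. Vpreb1 had 1938 UMIs in 177 Ctrl cells (706 CPM) and 11 UMIs in 1 cKO cell (137 CPM), a log2 ratio of -2.36 (-3.37 to -1.52). Igll1 had 1814 UMIs in 173 Ctrl cells (661 CPM) and 14 UMIs in 2 cKO cells (175 CPM), a log2 ratio of -1.92 (-2.80 to -1.17). With the cKO UMIs in 1 or 2 cells, the intervals of Vpreb1 and Igll1 do not cover the spread between cells. The Vpreb1 copy, Vpreb2, had 307 UMIs in 114 Ctrl cells and 12 UMIs in the 1 cKO cell that held Vpreb1. Dntt had 768 UMIs in Ctrl (280 CPM) and 1 in cKO (12.5 CPM), a log2 ratio of -4.49 with an interval of -9.79 to -2.01. Rag1, at 274 UMIs (99.8 CPM) in Ctrl, had none in cKO, at least 2.67-fold lower against the 37.4 CPM that 3 counts in the cKO cells would give. Rag2 had 99 UMIs in Ctrl (36.1 CPM) and none in cKO, which the depth of 80203 UMIs in the 18 cells could not tell apart.

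**Figure D2:**
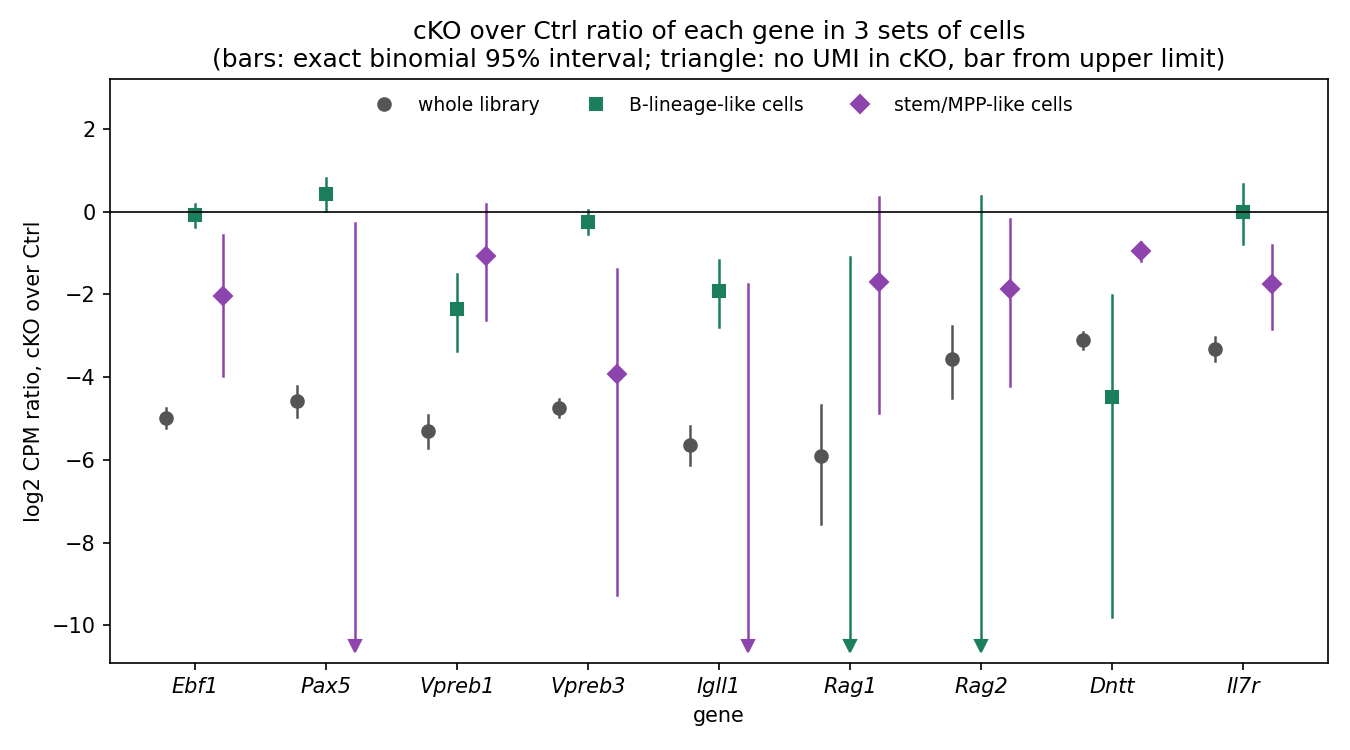
Log2 ratio of CPM, cKO over Ctrl, for the 9 genes over the whole libraries (grey circles), in B-lineage-like cells (green squares) and in stem/MPP-like cells (purple diamonds), with exact binomial 95% intervals as bars. A triangle at the lower edge stands for a gene with no UMI in the cKO cells, and its bar starts at the upper limit. The grey points lie from -5.91 to -3.11, while Ebf1, Pax5, Vpreb3 and Il7r lie near 0 in B-lineage-like cells.

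The stage of the cells was read from later B genes that are not members (Ms4a1, Ighd, Fcer2a, Cr2, Fcmr, Btla and the MHC class II genes H2-Aa, H2-Ab1 and H2-Eb1). In Ctrl, 165 of the 715 B-lineage-like cells (23.1%, 20.0% to 26.3%) held no UMI of these genes, and in cKO 1 of 18 did (5.56%, 0.141% to 27.3%). The difference was -17.5 percentage points with an interval of -23.8 to 4.43, so a difference in the mix of stages was not detectable with 18 cells by this split. As a share of all kept cells, those without later B UMIs were 1.66% in Ctrl and 0.0149% in cKO, a ratio of 111 with an interval of 19.7 to 4420. Those with later B UMIs were 5.52% and 0.253%, 21.8-fold lower in cKO (13.5 to 37.7). The cells with later B UMIs held more of them in cKO, with a median of 29 per cell (range 3 to 79) over the 17 cells, against a median of 10 over the 550 Ctrl cells. These counts are not matched for depth, and the cKO cells were deeper, with a median of 3932 UMIs in all against 2493.5.

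In Ctrl, the members divided along this split. Cells without later B UMIs had 1840 CPM of Vpreb1, 1546 CPM of Igll1, 708 CPM of Dntt, 276 CPM of Rag1 and 100 CPM of Rag2. Cells with later B UMIs had 423, 440, 173, 56.0 and 20.0 CPM of the same genes, lower in each case. Ebf1 (2443 and 1329 CPM), Vpreb3 (2457 and 1321 CPM) and Il7r (305 and 206 CPM) were also lower in the later cells, and Pax5 was at 497 and 531 CPM.

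Among cells with later B UMIs alone, 5 of 9 members were at least 2-fold lower in cKO by the ratio of CPM (background 33.2%), and 3 of 7 among the deep genes (background 9.85%). Of the 5, Rag1 (123 UMIs and none) and Rag2 (44 and none) are not past 2-fold at the limit of 3 counts. Vpreb1 had 930 UMIs in 96 of the 550 Ctrl cells and none in the 17 cKO cells, at least 9.89-fold lower at that limit. Dntt had 380 and none, at least 4.04-fold lower at it. These limits take UMIs as independent and do not cover the spread between cells, with only 17 cells in cKO. Igll1 had 967 UMIs and 1, a log2 ratio of -4.95 with an interval of -10.25 to -2.47. Ebf1 (log2 0.07, -0.23 to 0.36), Pax5 (0.27, -0.19 to 0.70), Vpreb3 (-0.09, -0.41 to 0.22) and Il7r (0.15, -0.67 to 0.86) had intervals that include 0. The Ctrl cells of this set still held 96 cells with Vpreb1, so cells with surrogate light chain RNA stayed in the Ctrl set.

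The 18 cKO cells can be given one by one. The cell without later B UMIs (10106 UMIs in all) was the only one with Vpreb1: it held 11 UMIs of Vpreb1, 13 of Igll1, 12 of Vpreb2, 19 of Ebf1, 11 of Pax5, 17 of Vpreb3, 2 of Il7r and the only UMI of Dntt. The next by later B UMIs, with 3 of these and 16335 UMIs in all, held 58 UMIs of Vpreb3, 29 of Ebf1, 14 of Pax5 and 14 of Il7r, and none of the surrogate light chain pair. A cell with 6 later B UMIs held 12 UMIs of Vpreb3, 10 of Ebf1, 7 of Pax5, 2 of Il7r and 1 of Igll1. The other 15 held no UMI of Vpreb1, Igll1, Rag1, Rag2, Dntt or Il7r, and at most 11 of Ebf1 and 4 of Pax5. Cells with Vpreb1 or Igll1 were 2 of 18 in cKO (11.1%, 1.38% to 34.7%) and 191 of 715 in Ctrl (26.7%, 23.5% to 30.1%).

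**Figure D3:**
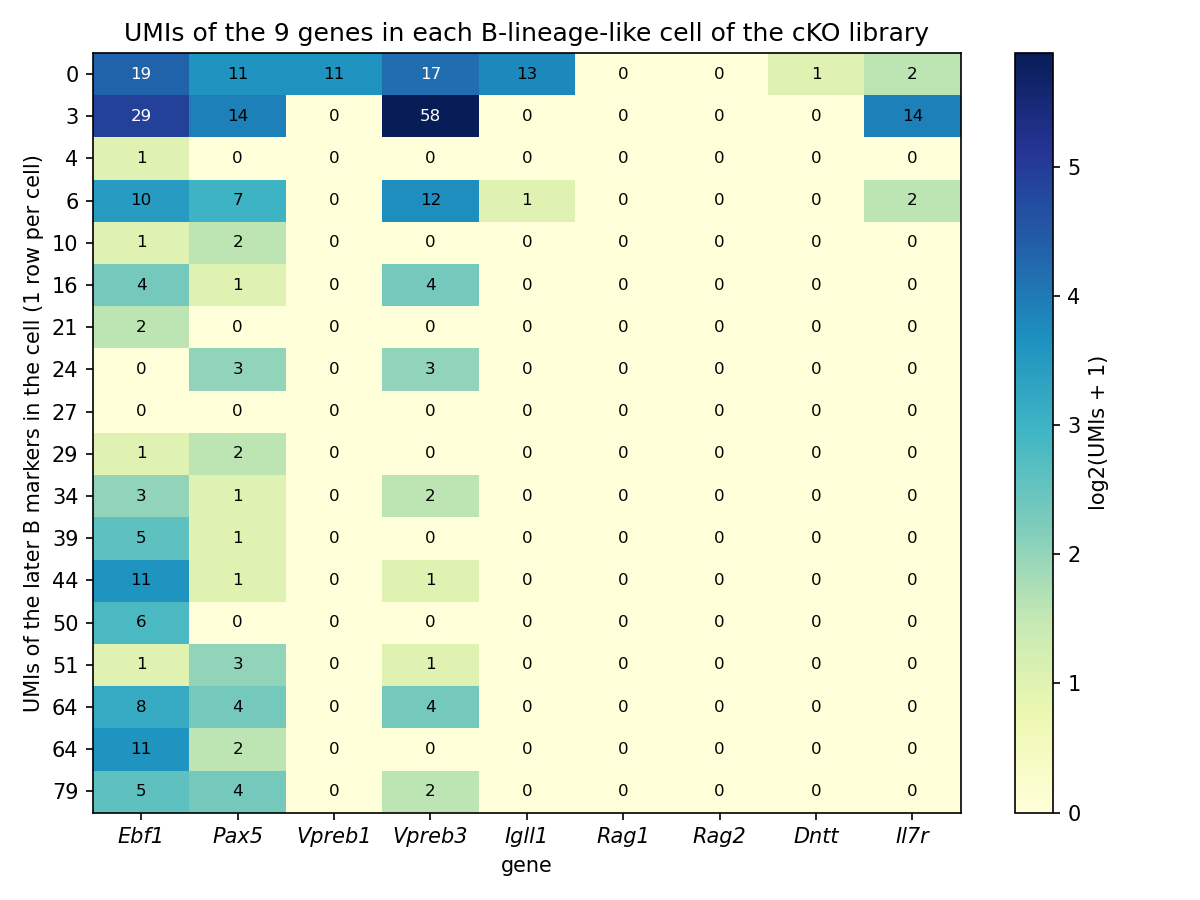
UMIs of the 9 genes in each of the 18 B-lineage-like cells of the cKO library, 1 row per cell, ordered by the UMIs of later B genes in the cell (left axis); colour gives log2(UMIs + 1) and the number in each field is the UMI count. Vpreb1, Igll1, Dntt and Il7r are limited to the top rows, and Ebf1 and Pax5 run through most of the 18.

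A further measure set the Ctrl B-lineage-like cells apart. Of the 715, 154 (21.5%) also passed a neutrophil gate, against 0 of 18 in cKO, and S100a8, an abundant neutrophil RNA, was at 6747 and 5112 CPM in the B-lineage-like cells of Ctrl and cKO. Without those 154 cells the log2 ratio of the B-lineage share was -4.39 and that of the 9 genes in B-lineage-like cells was -0.54, beside -4.74 and -0.49 with them.

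Genes that work with the members were read in the same B-lineage-like cells, where 32.5% of genes tested were at least 2-fold lower and 10.5% at least 2-fold higher in cKO. Of the 11 genes of pre-B and B receptor signalling, none was past 2-fold in either direction (median log2 0.31), from Btk at -0.15 and Cd72 at 0.10 to Ighm, the heavy chain constant gene, at 0.71 and Cd79b, a receptor signalling chain, at 0.82. Of 11 early B regulators, 4 were at least 2-fold lower and none higher, with Lef1 (761 and 5 UMIs, log2 -2.15) and Erg (269 and 2 UMIs, log2 -1.97) lowest and Ikzf3 (0.58) and Ikzf1 (0.79) highest. Of 6 early B genes outside the members, 3 were at least 2-fold lower and none higher. Arpp21 had 223 Ctrl UMIs and none in cKO, and Gfra1 had 174 and none. Tmem108 (log2 0.10) and Cecr2 (-0.12) were the highest of that list.

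All 9 later B genes were at least 2-fold higher in the cKO B-lineage-like cells (median log2 1.33), from Ms4a1 (444 and 898 CPM, log2 1.02) and H2-Eb1 (log2 1.16) to Fcer2a, the low-affinity IgE receptor (log2 1.87), and Cr2, complement receptor 2 (36.1 and 212 CPM, log2 2.55). Ms4a1 is also one of the genes that defined the class. Among 10 genes of the IL-7 receptor pathway, 2 were counted as lower and 1 as higher: Jak3 and Cish had 32 Ctrl UMIs each and none in cKO, which is under the limit of 3 counts, and the survival gene Bcl2 was at 47.7 and 175 CPM (log2 1.87) and Pim1 at log2 0.67. Of 8 end joining partners of V(D)J recombination, 2 were counted as lower and 1 as higher, on 4 or fewer cKO UMIs for each gene named: Lig4 had 138 and 1 UMIs, Nhej1 14 and 0, Dclre1c 68 and 3 and Xrcc5 59 and 4. Of the 11 tested genes of lymphoid priming, 2 were counted as lower, Cd27 (27 UMIs and none) and Flt3 (11 and none), both under the limit of 3 counts, and 2 were higher, Cd52 (log2 1.11) and Ly6d, an early lymphoid surface protein (log2 1.86).

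In stem/MPP-like cells, Dntt was the member with by far the most UMIs, and its summed level was lower in cKO. Dntt had 1045 UMIs in 114 of the 651 Ctrl cells (155 CPM, 146 to 165) and 195 UMIs in 24 of the 174 cKO cells (79.4 CPM, 68.6 to 91.3). The log2 ratio was -0.96 (-1.19 to -0.74), by intervals that take UMIs as independent. The share of cells with Dntt, not thinned, was 17.5% (14.7% to 20.7%) in Ctrl and 13.8% (9.04% to 19.8%) in cKO. That difference of -3.72 percentage points had an interval of -9.41 to 2.95, which includes 0. Il7r had 92 UMIs in 27 Ctrl cells (13.6 CPM) and 10 UMIs in 4 cKO cells (4.07 CPM), a log2 ratio of -1.74 (-2.85 to -0.80). Rag2 had 30 and 3 UMIs (4.44 and 1.22 CPM) and Rag1 had 18 and 2, the 18 of Ctrl in 4 cells. Of the 9 members, 8 were at least 2-fold lower, all but Dntt, beside 6.19% of the 12195 genes with at least 10 UMIs in these cells. Each of the 8 had 92 Ctrl UMIs or fewer, while the background takes in genes of all depths. The log2 intervals of Rag1 (-4.86 to 0.35) and Vpreb1 (-2.63 to 0.18) include 0. The count of 8 also includes Pax5 (14 UMIs and none), at least 1.70-fold lower. It cannot be read as progenitor expression for every gene, because the same members were found in cells that do not make them.

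The level in cells that should lack these genes, which free RNA and droplets with more than 1 cell can both give, was higher in Ctrl. In mature neutrophil (mNeu)-like cells, the sum of the 9 genes was 58.6 CPM in Ctrl (45.1 CPM without 1 cell that held 65 of the 281 UMIs) and 0.793 CPM in cKO, and the 11 B-lineage markers together were at 87.8 and 5.33 CPM. Ebf1 was at 12.5 CPM in Ctrl mNeu-like cells and 6.67 CPM in Ctrl stem/MPP-like cells, Pax5 at 3.34 and 2.07 CPM, Vpreb1 at 11.5 and 5.18 CPM, Vpreb3 at 15.4 and 6.22 CPM, and Igll1 at 7.09 and 5.33 CPM. In CPM, these 5 were below the mNeu-like level in Ctrl progenitors. Igll1 was above the 4.804 CPM (3.05 to 7.21) of mNeu-like cells without that 1 cell, but within its interval. Ctrl stem/MPP-like cells were deeper, with a median of 8838 UMIs against 2185.5 in mNeu-like cells. A larger share of them held a UMI of each of the 5, as with Ebf1 in 3.84% against 1.53% of cells, not thinned. The level in CPM therefore cannot decide whether the UMIs of these 5 in Ctrl progenitors were background. In cKO, Vpreb1 at 2.44 CPM (0.896 to 5.32, 6 UMIs in 5 cells without Flt3 UMIs) lay above the 0.227 CPM (0.0275 to 0.819) of mNeu-like cells, and Ebf1 at 1.63 CPM (0.444 to 4.17, 4 UMIs in 2 cells) above their limit of 0.340 CPM. In Ctrl, Dntt (155 against 5.01 CPM), Il7r (13.6 against 1.67 CPM) and Rag2 (4.44 against 0.626 CPM) stood above the mNeu-like level. Rag1 was at 2.67 CPM (1.58 to 4.21) against 1.46 CPM (0.587 to 3.01), with intervals that overlap. In cKO, Dntt and Il7r had no UMI in the 8823429 UMIs of mNeu-like cells.

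The Dntt UMIs lay mostly in progenitors with Flt3, the receptor that marks lymphoid-primed cells. Cells with a Flt3 UMI were 271 of 651 stem/MPP-like cells in Ctrl (41.6%, 37.8% to 45.5%) and, for cKO, 77 of 174 (44.3%, 36.7% to 52.0%), which differ by 2.62 percentage points (-5.84 to 11.2). Cells with Hlf, a stem cell factor, were 43.2% and 53.4% (10.3 points, 1.65 to 18.8). At 1000 UMIs per cell neither difference was past its interval, with Flt3 in 10.6% and 8.46% of cells (-2.15 points, -6.69 to 3.53) and Hlf in 13.2% and 13.0% (-0.21 points, -5.67 to 6.26). In these cells Dntt had 1009 UMIs in Ctrl (291 CPM) and 179 in cKO (137 CPM), a log2 ratio of -1.09 (-1.32 to -0.86), and Flt3 itself was at 244 and 168 CPM. All 8 members tested there were at least 2-fold lower, beside 7.47% of the 11192 genes, with the same background beneath them and with Vpreb1 and Igll1 at 13 Ctrl UMIs and no cKO UMI each. In cells without Flt3 UMIs, Dntt was at 10.98 and 13.9 CPM (36 and 16 UMIs), a log2 ratio of 0.34 (-0.61 to 1.23).

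Dntt was concentrated in few cells in both libraries. The 5 cells with most Dntt, 2.87% of the class, held 69.7% of its stem/MPP-like UMIs in cKO, and 19 cells, 2.92% of the class, held 61.1% in Ctrl. The highest cell had 80 UMIs in Ctrl and 46 in cKO. Without that cell in each library, an alternative chosen after the data were seen, the log2 ratio was -1.23 (-1.49 to -0.98). Among Flt3+ cells, 96 (35.4%, 29.7% to 41.4%) held Dntt in Ctrl and 18 (23.4%, 14.5% to 34.4%) in cKO, and at least 10 UMIs of it were in 33 (12.2%) and 6 (7.79%). Cells with Dntt together with Il7r, Rag1 or Rag2, the pattern of a lymphoid-primed cell, were 21 of 271 (7.75%) and 3 of 77 (3.90%).

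**Figure D4:**
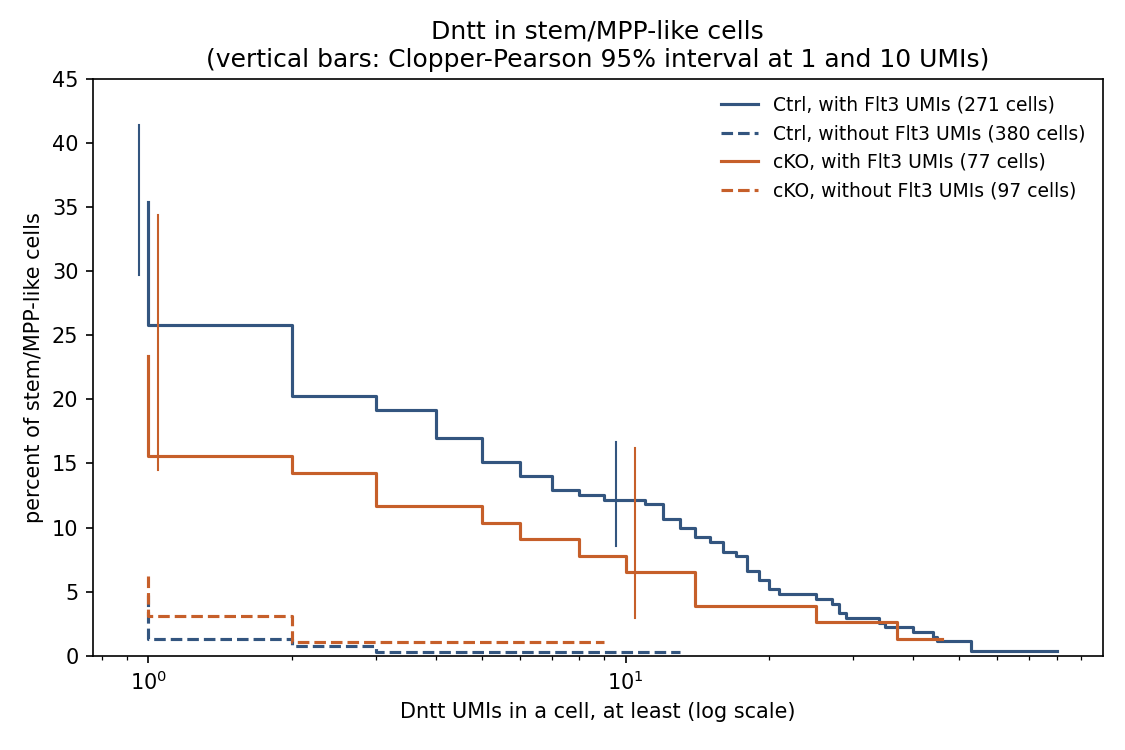
Percent of stem/MPP-like cells (y axis) with at least the number of Dntt UMIs on the x axis (log scale), for cells with Flt3 UMIs (solid) and without (dashed) in Ctrl (blue) and cKO (orange), with Clopper-Pearson 95% intervals at 1 and 10 UMIs. Flt3+ cells of Ctrl lie above those of cKO over most of the range, at 35.4% and 23.4% for 1 UMI and 12.2% and 7.79% for 10, with intervals that overlap, and cells without Flt3 UMIs stay under 10% in both libraries.

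Because cKO progenitors were sequenced more deeply (a median of 8838 UMIs per stem/MPP-like cell in Ctrl and 11943 in cKO), detection was also compared after thinning each cell to 1000 UMIs. The share of stem/MPP-like cells with a UMI of any member was then 9.88% in Ctrl (interval 7.69% to 12.5%) against 4.82% in cKO (2.14% to 9.18%), which is a difference of -5.06 percentage points (-8.78 to -0.19), after 7 and 2 shallower cells were left out. Without thinning it was 32.0% and 16.7%. The same thinned share in mNeu-like cells, which should lack these genes, was 3.52% in Ctrl and 0.0977% in cKO. For Dntt alone, the share of Flt3+ cells was 15.6% (11.5% to 20.5%) and 8.14% (3.13% to 16.6%), a difference of -7.46 points (-14.5 to 1.98), and in mNeu-like cells it was 0.321% and 0%. The interval for any member reached past 0 with a stricter gate (-4.53, -8.36 to 0.50) and when only Dntt, Il7r, Rag1 and Rag2 were counted (-3.42, -6.90 to 1.26).

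The progenitors were also read in cells with no UMI of any B-lineage marker. The log2 ratio of Dntt was then -0.97 (-1.43 to -0.54), close to its value in all stem/MPP-like cells. That of Il7r was -0.44 (-2.21 to 1.03), with an interval that includes 0, the value -1.74 of all stem/MPP-like cells and the value of Dntt. Those markers summed to 84.4 CPM in Ctrl and 58.6 CPM in cKO stem/MPP-like cells, and 4 of the 11 had no UMI in cKO. Their part in the Il7r result was not tested.

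Per kept cell, Dntt RNA of the progenitors was closer between the libraries than RNA of the B-lineage genes. These values combine the share of cells in a class, 2.52-fold lower in cKO for stem/MPP-like cells, with the UMIs per cell. They are not scaled for depth, with a median of 4111 UMIs per kept cell in Ctrl and 6243.5 in cKO. For each 1000 kept cells, Dntt in stem/MPP-like cells gave 105 UMIs in Ctrl and 29.0 in cKO, 3.61-fold lower. Il7r in the same cells gave 9.23 and 1.49, 6.20-fold lower. Dntt in B-lineage-like cells gave 77.1 and 0.149 UMIs, 518-fold lower, on 1 cKO UMI. Ebf1 in B-lineage-like cells gave 427 and 17.4 UMIs, 24.5-fold lower, Igll1 182 and 2.08, 87.4-fold lower, and Vpreb1 194 and 1.64, 119-fold lower. For these genes, the RNA counted in progenitors was lower in the cKO library, by a smaller fold than the RNA counted in B-lineage-like cells.

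The other genes of the lymphoid programme were near their Ctrl level in stem/MPP-like cells, where 6.19% of all genes tested were at least 2-fold lower, 2.25% at least 2-fold higher, and the median log2 ratio was -0.13. None of the 11 tested genes of lymphoid priming was past 2-fold (median -0.49). Notch1, the receptor of the T cell pathway (60.6 and 32.6 CPM, log2 -0.90), and Mef2c, a factor of lymphoid-primed progenitors (351 and 195 CPM, log2 -0.84), were lowest, and Cd27 (0.11) and Cd52 (0.38) highest. In Flt3+ cells 3 of 11 were at least 2-fold lower, beside the background of 7.47%, and none was higher. Mef2c was at 424 and 187 CPM (log2 -1.18) and Notch1 at 89.0 and 42.1 CPM (log2 -1.08). Ly6d, which marks the step towards the B lineage and is named here after its values were seen, had 114 UMIs in 16 Ctrl cells (32 in 1 of them) and none in cKO, at least 14.3-fold lower. In cells without Flt3 UMIs Ly6d had 15 UMIs in 15 Ctrl cells and 32 in 2 cKO cells, 31 of them in 1 cell, so its level over all stem/MPP-like cells was 19.1 and 13.0 CPM. Of 8 tested early B regulators none was past 2-fold, from Ikzf1 (-0.66) and Myb (-0.63) to Tcf3 (-0.10) and Foxo1 (0.27). None of 10 IL-7 receptor pathway genes was past 2-fold either, from Bcl2 (-0.57) and Mcl1 (-0.42) to Cish (0.46) and Socs2 (0.53), nor any of 8 end joining partners, from Xrcc4 (-0.48) and Xrcc6 (-0.32) to Xrcc5 (0.33) and Nhej1 (0.62).

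The B cell lists were lower in the same progenitors. Of 10 tested genes of pre-B and B receptor signalling, 5 were at least 2-fold lower, with Cd79a (44 UMIs and none) lowest, and Cd72 (-0.18) and Cd79b (229 and 86 UMIs, log2 0.05) highest. Of the early B genes outside the members, 4 of 5 were lower, with Cecr2 (10 and 0 UMIs) and Atp1b1 (32 and 1) lowest and Arpp21 (90 and 15 UMIs, log2 -1.13) and Tmem108 (log2 0.40) highest. Of the later B genes, 5 of 7 were lower, with Ighd (30 UMIs and none) and Fcmr (13 and 1) lowest and H2-Aa (-0.70) and H2-Ab1 (-0.18) highest. The B-lineage marker level of Ctrl mNeu-like cells moved with these lists, and its part in them was not tested.

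In cKO, granulocyte progenitors held UMIs of the surrogate light chain pair without Ebf1 or Pax5. In Ctrl they held both, with 109 UMIs of Vpreb1 and Igll1 together and 123 of Ebf1, Pax5 and Vpreb3 together. GMP/ProNeu-like cells, granulocyte-macrophage progenitors and the first neutrophil precursors, numbered 1230 in Ctrl and 1133 in cKO. In cKO they had 28 UMIs of Vpreb1 in 24 cells, 23 of Igll1 in 21 cells, 9 of Rag2 in 7 cells and 1 of Dntt, and no UMI of Ebf1, Pax5, Vpreb3, Rag1 or Il7r among 16001212 UMIs. That is 1.75 CPM of Vpreb1 (1.16 to 2.53) and 1.44 CPM of Igll1 (0.911 to 2.16), against 0.856 and 0.623 CPM over the whole cKO library. GMP/ProNeu-like cells held 50.9% and 57.5% of all UMIs of these genes in the cKO library, and 16001212 of its 64241692 UMIs of all genes. A count of 0 there allows up to 0.187 CPM. The stem/MPP-like cells of cKO had 6 UMIs of Vpreb1 (2.44 CPM), 4 of Ebf1, 1 of Vpreb3 and none of Igll1 or Pax5.

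The ratio between genes differed from that in B-lineage-like cells. UMIs of Ebf1, Pax5 and Vpreb3 together were 11.1 times those of Vpreb1 and Igll1 together in cKO B-lineage-like cells, and 0 against 51 UMIs in cKO GMP/ProNeu-like cells. Of the 25 UMIs of Vpreb1 and Igll1 in cKO B-lineage-like cells, 11 and 13 lay in 1 cell. That cell held 19 UMIs of Ebf1, 11 of Pax5 and 17 of Vpreb3, so 11.1 is not the ratio of a cell that holds the pair. In Ctrl this ratio was 2.65 in B-lineage-like, 1.69 in mNeu-like and 1.13 in GMP/ProNeu-like cells. The later neutrophil classes of cKO had little of either gene, with 6 UMIs of Vpreb1 and 1 of Igll1 in 3309 PreNeu/imNeu-like cells and 2 and 1 in 1399 mNeu-like cells.

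In Ctrl GMP/ProNeu-like cells Vpreb1 was at 3.47 CPM (60 UMIs), Igll1 at 2.83 CPM (49 UMIs) and Rag2 at 0.926 CPM (16 UMIs). The log2 ratio, cKO over Ctrl, was -0.99 for Vpreb1 (-1.69 to -0.32) and -0.98 for Igll1 (-1.76 to -0.24), beside the background that Ctrl showed in mNeu-like cells. Either gene was found in 99 Ctrl cells (8.05%) and 43 cKO cells (3.80%), and both in 2 cells of each library. Of these cells, 55 of the 99 and 24 of the 43 also held a UMI of a B-lineage marker. Over the whole class these markers summed to 56.8 CPM in Ctrl and 35.2 CPM in cKO. The shares with a marker were not matched for depth or compared with other cells of the class. Cells with either gene were deep, with a median of 31695 UMIs against 3606 for the rest of the class in cKO. No cKO cell held more than 3 UMIs of the pair. Top3b, which overlaps Vpreb1, had 1250 and 847 UMIs in GMP/ProNeu-like cells, and B230118H07Rik, which overlaps Rag2, had 1184 and 1112. Their part in the counts of Vpreb1 and Rag2 was not tested, and Igll1 has no overlapping gene in the annotation.

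**Figure D5:**
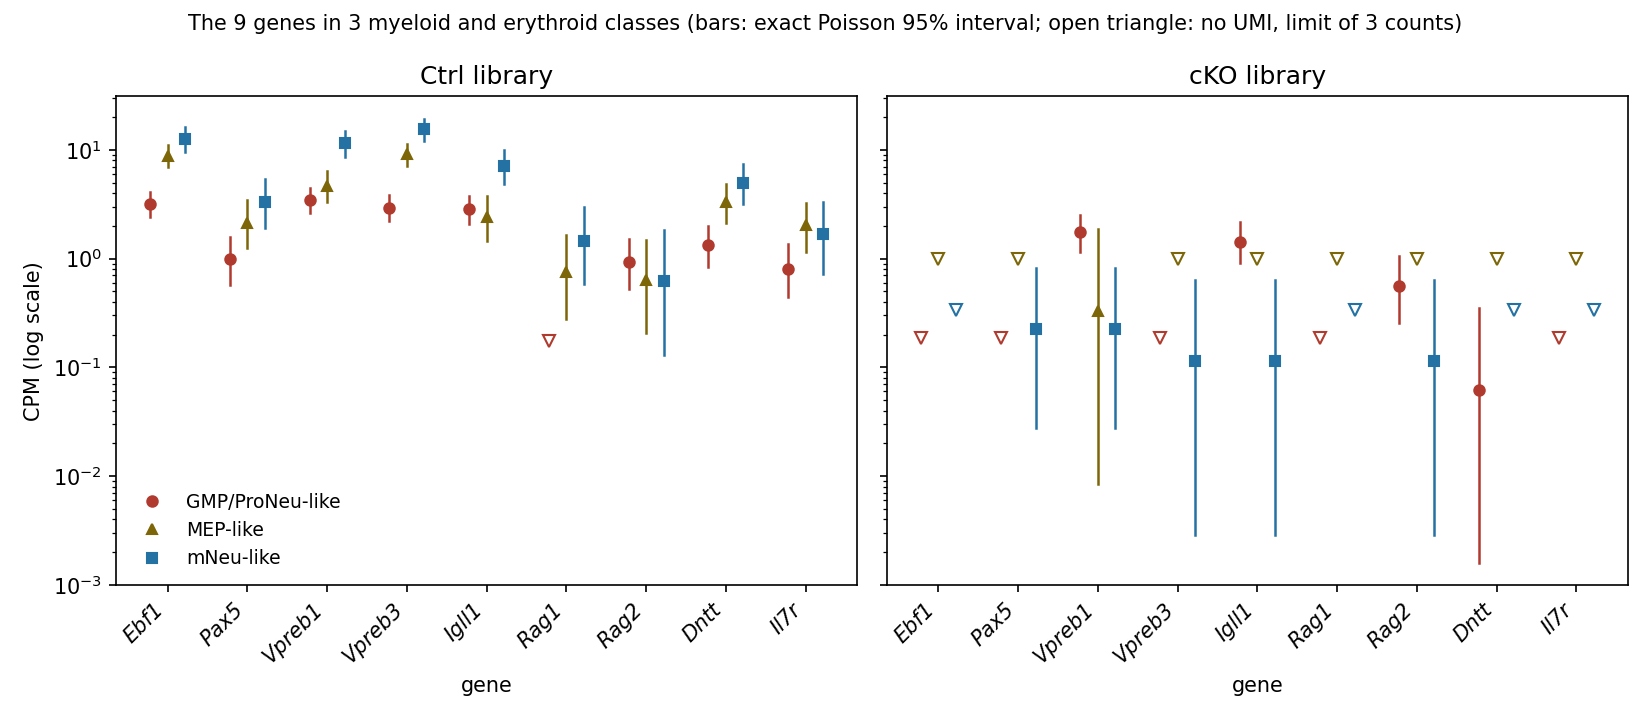
CPM (log scale) of the 9 genes in GMP/ProNeu-like (red circles), MEP-like (brown triangles) and mNeu-like (blue squares) cells of Ctrl (left) and cKO (right), with exact Poisson 95% intervals. Open triangles mark the limit of 3 counts where no UMI was seen. In Ctrl all 3 classes hold most of the genes, while in cKO GMP/ProNeu-like cells hold Vpreb1 and Igll1 at 1.75 and 1.44 CPM with 5 of the other genes at 0.

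Megakaryocyte and erythroid progenitors (MEP-like) behaved as a class without these genes in cKO. The 163 cKO cells held 1 UMI of all 9 members, a UMI of Vpreb1, in 3004383 UMIs, and the 567 Ctrl cells held 268 UMIs (33.9 CPM), among them 70 of Ebf1 and 72 of Vpreb3. After thinning to 1000 UMIs, 3.69% of Ctrl and 0.0501% of cKO MEP-like cells held a member. The thinned share of Ctrl MEP-like cells was close to the 3.52% of Ctrl mNeu-like cells.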

How the data were processed

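The authors made the deposited files, raw UMI counts per gene and barcode for barcodes called as cells, with no normalization. The submitters' processing notes name Cell Ranger 5.0.0 and mm10. The study's methods remove doublets, but the deposited tables hold all called cells and no doublet caller was run here. The study's cell filter (detected genes between 200 and 9000, mitochondrial UMIs up to 30%) left 9965 Ctrl and 6718 cKO cells. A cell passed a class gate with at least 3 UMIs of at least 2 marker genes and a marker share of UMIs of at least 5% of the mean of the 50 highest cells of 1000 or more UMIs. It took the class with the highest relative share, and cells that passed the B-lineage gate were not gated as stem/MPP. UMIs were summed per class and library and given as CPM with exact Poisson intervals, log2 ratios with exact binomial intervals for genes with at least 10 UMIs, and shares with Clopper-Pearson intervals (95%). Differences of shares combine both Clopper-Pearson intervals. A class with no UMI has an upper limit of 3 counts. Thinned shares are averages over all possible draws of 1000 UMIs per cell. With 1 library per condition no test was made. All 9 members are named in the text, and of each other list the 2 highest and 2 lowest log2 ratios, except 1 gene that is not reported here. Members, lists and gates were chosen or settled with earlier results of these data known. Sequences and positions are from RefSeq GRCm38.p6 and GENCODE vM21. The Flt3 and Hlf shares at 1000 UMIs, the Dntt share of an equal fraction of cells and the mNeu-like level without 1 cell were chosen after seeing the data. The ratios and intervals were tested on simulated data. Python 3.11.15, numpy 2.4.6, scipy 1.17.1, pandas 2.3.3 and matplotlib 3.10.9 were used.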

Additional observations from a re-analysis of the deposited data

How the results depend on the processing

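Of 60 recomputed values of the main comparisons, all 60 kept their direction and 52 moved by less than their interval. The log2 ratio of the 9 genes over whole libraries (-4.48) was -3.95 with median-of-ratios scaling, -4.90 as a mean of each cell's share and -4.35 in cells of at least 2000 UMIs. As a mean of each cell's share it was -0.98 in B-lineage-like cells (from -0.49), -0.67 in those with later B UMIs (from -0.35), and Pax5 in B-lineage-like cells reversed from 0.41 to -0.016. Without the cell with most Dntt UMIs in each library, chosen after seeing the data, the 9 genes in stem/MPP-like cells were at -1.42 (from -1.16) and Dntt at -1.23 (from -0.96). Dntt in stem/MPP-like cells ranged from -1.23 to -0.78 over its alternatives. The share of stem/MPP-like cells with a member differed by -15.3 percentage points without thinning (from -5.06). In cells with no B-lineage marker UMI its interval (-9.53 to 1.21) includes 0. The B-lineage share ranged from -4.79 to -4.16. The other alternatives chosen after seeing the data, which were a doubled least marker share, Flt3+ progenitors alone, no cells that also pass a neutrophil gate, and Dntt, Il7r, Rag1 and Rag2 alone, moved no main value beyond its interval. Of 128 values for single genes, 112 moved by less than their interval and 121 kept their sign. The causes were not tested. Leaving out a replicate was not possible with 1 library per condition. No paired analysis was possible because the groups share only 1 replicate number and no test was made. Depth limits the small cKO classes, where 3 counts are 37.4 CPM in B-lineage-like, 41.6 CPM in pDC-like and 65.3 CPM in T-like cells.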

Other observations

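Il7r, the IL-7 receptor alpha chain, was also counted in the other lymphoid classes. T-like cells had 104 UMIs (393 CPM, 321 to 477) in Ctrl and 17 (370 CPM, 215 to 592) in cKO. NK/ILC-like cells had 26 UMIs (119 CPM, 77.4 to 174) and 18 (219 CPM, 130 to 346). In pDC-like cells, plasmacytoid dendritic cells that are known to share lymphoid genes with B cells, Il7r had 123 UMIs (292 CPM) in 61 of 119 Ctrl cells and 28 (388 CPM) in 8 of 11 cKO cells, a log2 ratio of 0.41 (-0.24 to 1.01). Dntt was present in the same class, with 52 UMIs (123 CPM) in 33 Ctrl cells and 15 (208 CPM) in 7 cKO cells, a log2 ratio of 0.75 (-0.18 to 1.60). In these classes, which were smaller in cKO, neither gene was lower in cKO in CPM beyond counting error.

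Vpreb3 stood apart from the other members in plasma cell-like cells, the antibody-secreting end of the lineage. It had 89 UMIs in 36 of 90 Ctrl cells (112 CPM, 90.1 to 138) and 45 in 13 of 38 cKO cells (94.6 CPM, 69.0 to 127), a log2 ratio of -0.25 (-0.80 to 0.29). Ebf1 had 14 and 6 UMIs there, Pax5, Rag1 and Rag2 none in either library, and the other 4 members at most 3 in Ctrl and none in cKO. Over the 32 points of 16 classes in both libraries, the genes outside the members whose level followed the members most closely were Vpreb2 (Pearson r = 0.88), Akap12 (0.88), Chst3 (0.86), Fam129c (0.86) and Gm37065 (0.86). These points share 2 libraries and the same cells, so the r is a description.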
